A study of Mus musculus with 6 samples.

Results

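The 10 genes described here mark satellite cells, the stem cells of skeletal muscle, in their quiescent or undifferentiated state: Pax7, Pax3, Cd34, Vcam1, Sdc3, Sdc4, Calcr, Spry1, Chrdl2 and Megf10. Like the other lists used below, they were chosen by name, but with earlier results of these data known. All 10 were found among the 21778 gene symbols of the count table. Gene expression was measured by stranded poly(A) RNA sequencing in primary myoblasts of Hdac11 knockout (KO) mice and of wild-type (WT) littermates, with 3 libraries per genotype. HDAC11 is the class IV histone deacetylase. The KO mice were Hdac11-/- on C57BL/6; loxP sites around exon 3 had been recombined by a Cre driven from the Sox2 promoter, so that the allele was lost in the whole animal and not in muscle alone. The WT mice were also C57BL/6. Both groups came from hindlimb muscle, were sorted for alpha7-integrin and CD34, expanded in medium with serum and basic fibroblast growth factor, plated on Matrigel at 26000 cells per cm2 and kept for 24 h in medium with 2% horse serum. The submitters' design calls the 3 libraries of a genotype biological replicates, and the labels give neither the age nor the sex of the animals.

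In resting muscle, satellite cells lie under the basement membrane of the fibre and are known by the transcription factor PAX7 and by surface proteins such as CD34, VCAM1, the syndecans and the calcitonin receptor. After injury, or when they are put into culture, they become cycling myoblasts that lose several quiescence genes while PAX7 is kept for a time. Withdrawal of growth factors then drives them out of the cell cycle, and PAX7 declines as myogenin and the contractile proteins appear.

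Library totals ran from 16742457 to 22835394 counts. Values are counts-per-million (CPM) of library totals scaled by edgeR's trimmed mean of M-values (TMM), and fold changes are KO over WT. The level of the targeted gene, Hdac11, was 33.5, 76.4 and 30.2 CPM in KO replicates 1, 2 and 3, against 63.0, 79.5 and 73.8 CPM in WT replicates 1, 2 and 3. These counts also cover the exons outside the deletion and do not check the deletion itself. The library labelled KO replicate 2 thus lay within the WT range, and the difference had a log2 fold change of -0.63 (SE 0.35, edgeR adjusted p = 0.380). For the 8 tested members, and where a DESeq2 call is lost, values without that library are also given. By Xist and genes of the Y chromosome, KO replicate 3 and WT replicate 1 looked male, and the other 4 libraries looked female.

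Promoter sequences of the members that differ in the direction of their values are shown first, because these members are set side by side below. RefSeq's GRCm38.p6 table held promoters for 6 of the 10 genes: Pax7, Cd34, Sdc3, Sdc4, Calcr and Spry1. The listed Pax7 window lies within the annotated span of the gene and is not printed. The lines give the 250 bases before the start site, 5′ to 3′ on the gene's strand, for Cd34, Sdc3 and Sdc4, whose means were higher in KO, and Spry1, whose mean was lower. Capitals mark E-boxes (CANNTG) and GC boxes (GGGCGG), searched on both strands.
Cd34, chr1:194938571-194938820, plus strand: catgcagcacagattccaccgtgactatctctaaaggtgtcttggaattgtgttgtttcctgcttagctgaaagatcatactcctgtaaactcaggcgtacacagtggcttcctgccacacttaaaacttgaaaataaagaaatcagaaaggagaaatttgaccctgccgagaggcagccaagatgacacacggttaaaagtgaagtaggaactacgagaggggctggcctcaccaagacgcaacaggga
Sdc3, chr4:130792287-130792536, plus strand: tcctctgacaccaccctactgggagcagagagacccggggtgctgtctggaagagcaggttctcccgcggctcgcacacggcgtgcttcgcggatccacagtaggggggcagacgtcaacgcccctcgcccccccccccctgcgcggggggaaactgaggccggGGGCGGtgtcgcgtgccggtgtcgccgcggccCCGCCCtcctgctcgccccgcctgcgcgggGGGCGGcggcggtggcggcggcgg
Sdc4, chr2:164443189-164443438, minus strand: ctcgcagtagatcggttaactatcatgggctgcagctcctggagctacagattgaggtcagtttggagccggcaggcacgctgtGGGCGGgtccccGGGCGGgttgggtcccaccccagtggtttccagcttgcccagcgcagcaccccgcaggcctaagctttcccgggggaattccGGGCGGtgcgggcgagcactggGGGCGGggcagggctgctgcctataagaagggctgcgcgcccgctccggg
Spry1, chr3:37639697-37639946, plus strand: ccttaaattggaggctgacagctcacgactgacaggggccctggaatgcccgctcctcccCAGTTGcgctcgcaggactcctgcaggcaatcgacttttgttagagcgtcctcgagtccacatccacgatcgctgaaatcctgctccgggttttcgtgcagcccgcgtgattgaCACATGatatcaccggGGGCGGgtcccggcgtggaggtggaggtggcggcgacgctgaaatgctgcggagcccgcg

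The Sdc3 and Sdc4 windows held 3 and 4 GC boxes, the Spry1 window 1 GC box and 2 E-boxes, and the Cd34 window held no match to either. No pair of these motifs overlapped in the printed windows. Of all 32536 distinct promoter windows of this length, 66.2% held an E-box and 33.0% a GC box. The G and C content was 46.4% for Cd34, 76.4% for Sdc3, 68.0% for Sdc4 and 62.4% for Spry1, against a median of 52.4% over all windows. A match to the TEAD motif GGAATG was found in the Spry1 window, as in 12.6% of all windows. The printed windows held 0 matches to the RBPJ motif TGGGAA, which 21.6% of all windows held. They also held 0 matches to the AP-1 motif TGANTCA, found in 6.7% of all windows, and to a TATA box, spelled TATAAA and found in 12.3%. These matches describe letters in the windows and are not measurements of binding.

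Satellite cell identity genes had log2 fold changes of both signs between the genotypes. Cd34 and Vcam1 rose in KO cells by DESeq2, with fold changes of means of 6.52 and 2.84, while none of the 8 tested members passed edgeR's adjusted threshold. Pax7 had a mean 1.58 times that of WT with no overlap of the groups. Sdc3, Sdc4 and Pax3 had higher means in KO, and Spry1 and Megf10 had lower means, with no test passed. Calcr and Chrdl2 were near the limit of detection in all libraries and were dropped by the low-count filter. In bulk RNA, fewer cells of a type and less RNA per cell cannot be told apart.

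In counts over the 8 tested members, 6 had a positive and 2 a negative log2 fold change, with a median of 0.66 against a median of -0.0086 over all 14835 tested genes. At an unadjusted edgeR p under 0.05, 3 members were higher in KO and 0 were lower, where 9.88% of all tested genes were higher and 7.83% were lower. After adjustment over all genes edgeR called 0 members and 0% of all genes, with a smallest adjusted p of 0.138 over the whole table, so its 0 says nothing particular about the members. limma-voom also called 0 members and 0% of all genes, and 2550 of its genes had an unadjusted p under 0.05. DESeq2 called 2 members higher, where it called 4.17% of genes higher, and 0 members lower, where it called 2.21% lower. The authors' deposited table called Cd34 and Vcam1 higher (adjusted p = 0.00224 and 0.00786) and no other member, where it called 4.20% of its genes higher and 2.13% lower. The groups did not overlap for 3 members with KO above WT, where this held for 13.2% of tested genes, and for 1 member with KO below WT, where it held for 10.2%. The signs of the log2 fold changes of all 8 tested members were the same in all 20 alternative fits.

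**Figure D1:**
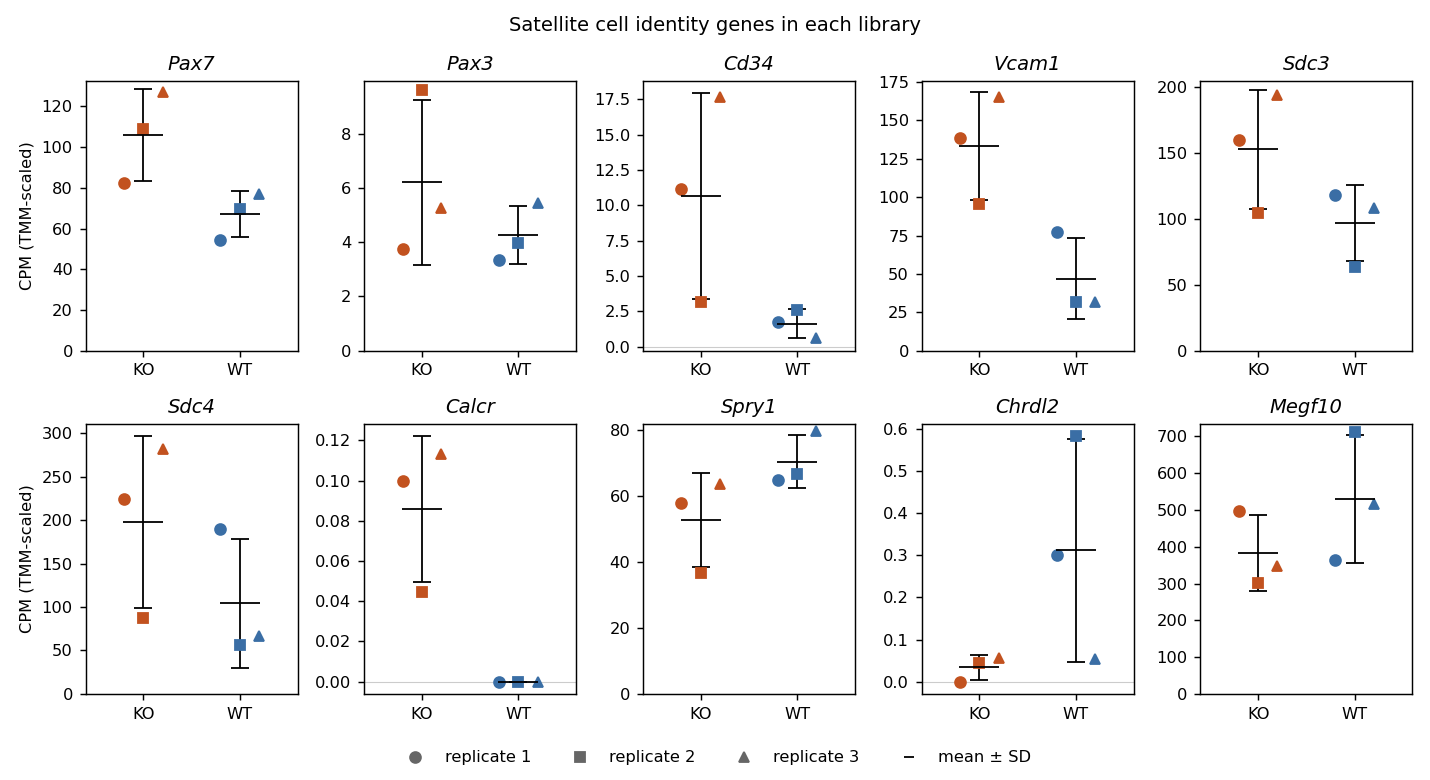
CPM of the 10 satellite cell identity genes in each library, KO at the left of each panel and WT at the right, with linear axes that differ between panels. Points are libraries by replicate number and bars are the mean ± SD (n = 3); among the tested genes the groups are apart for Pax7, Cd34, Vcam1 and Spry1, and Calcr and Chrdl2 lie below 1 CPM in all libraries.

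Pax7 and Pax3 encode paired-box transcription factors, Pax7 being the defining factor of adult satellite cells and Pax3 its relative of embryonic muscle progenitors. Pax7 had 82.3, 109 and 127 CPM in KO replicates 1, 2 and 3, against 54.6, 69.7 and 77.0 CPM in WT replicates 1, 2 and 3. All KO libraries were above all WT libraries, with the smallest gap between KO replicate 1 and WT replicate 3. The means were 106 ± 22.6 CPM in KO and 67.1 ± 11.4 CPM in WT (SD, n = 3 each). The log2 fold change was 0.66 (SE 0.21, 95% interval 0.17 to 1.15), with an edgeR adjusted p of 0.204 and a DESeq2 adjusted p of 0.0978. Without the library labelled KO replicate 2 it was 0.65 in edgeR. DESeq2 called Pax7 when KO replicate 1 was left out (adjusted p = 0.0308) and in none of the other fits with 1 library left out.

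Pax3 had 3.73, 9.62 and 5.25 CPM in KO replicates 1, 2 and 3, against 3.36, 3.96 and 5.45 CPM in WT replicates 1, 2 and 3. The groups overlapped, and the highest KO value was that of the library labelled KO replicate 2. The log2 fold change was 0.55 (SE 0.41, 95% interval -0.41 to 1.50; edgeR adjusted p = 0.506). Without that library it was 0.08 (edgeR adjusted p = 0.925). That library held the highest Pax3 value and, among KO libraries, the lowest value of each surface and signalling member tested.

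Cd34 encodes a sialomucin of stem and progenitor cells and was an antigen of the sort from which all 6 cultures were started. It had 11.2, 3.18 and 17.7 CPM in KO replicates 1, 2 and 3, against 1.77, 2.56 and 0.582 CPM in WT replicates 1, 2 and 3. The groups did not overlap, although KO replicate 2 stood close to WT replicate 2. These values correspond to 224, 71 and 313 counts in KO and 41, 44 and 11 counts in WT. Its log2 fold change was 2.70 (SE 0.73, 95% interval 1.00 to 4.40), the largest of the tested members, with an edgeR adjusted p of 0.171 and a DESeq2 adjusted p of 0.00222. Without the library labelled KO replicate 2 it was 3.14, with a DESeq2 adjusted p of 2.35e-05. Without KO replicate 3 it was 2.14 in edgeR, and DESeq2 no longer called the gene (adjusted p = 0.145).

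Vcam1 encodes an adhesion receptor of the immunoglobulin family, found on quiescent and activated satellite cells, whose ligand is alpha4-integrin. It had 138, 95.7 and 165 CPM in KO replicates 1, 2 and 3, against 77.3, 31.6 and 32.0 CPM in WT replicates 1, 2 and 3. Each KO library was above each WT library, and WT replicate 1 was more than double the other WT libraries. Vcam1 had a log2 fold change of 1.50 (SE 0.39, 95% interval 0.59 to 2.41), with an edgeR adjusted p of 0.165 and a DESeq2 adjusted p of 0.00782. It was 2.08 without WT replicate 1 and 1.69 without the library labelled KO replicate 2. In DESeq2 the call was lost without KO replicate 3, WT replicate 2 or WT replicate 3 (adjusted p = 0.160, 0.0829 and 0.0603). Itga4, which encodes the alpha4-integrin chain, had 22.5, 13.0 and 7.79 CPM in KO replicates 1, 2 and 3, against 16.1, 9.90 and 21.2 CPM in WT replicates 1, 2 and 3, and was named after its value was seen.

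Sdc3 and Sdc4 encode syndecans, transmembrane heparan sulphate proteoglycans that act as co-receptors for fibroblast growth factor and other ligands on satellite cells. Sdc3 had 160, 105 and 194 CPM in KO replicates 1, 2 and 3, against 118, 63.8 and 108 CPM in WT replicates 1, 2 and 3. Sdc4 had 224, 88.0 and 282 CPM in KO replicates 1, 2 and 3, against 190, 55.8 and 67.0 CPM in WT replicates 1, 2 and 3. For both genes the libraries were in the same order over the first 3 places, KO replicate 3, KO replicate 1 and WT replicate 1, and the groups overlapped. The log2 fold change was 0.66 for Sdc3 (SE 0.30, 95% interval -0.04 to 1.36; edgeR adjusted p = 0.303). That of Sdc4 was 0.92 (SE 0.56, 95% interval -0.39 to 2.24; edgeR adjusted p = 0.412). Without WT replicate 1 the Sdc4 value was 1.70, with a DESeq2 adjusted p of 0.00698, and without KO replicate 3 it was 0.59 in edgeR. Without the library labelled KO replicate 2 the 2 values were 0.87 and 1.28, and the groups of both genes were then apart. With 1 library fewer, groups come apart more easily, and the share of all tested genes was not computed for that split.

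Spry1 encodes an intracellular inhibitor of receptor tyrosine kinase signalling that satellite cells use to return to quiescence. It had 57.8, 36.8 and 63.7 CPM in KO replicates 1, 2 and 3, against 64.8, 66.7 and 79.7 CPM in WT replicates 1, 2 and 3. All KO values were below all WT values, but KO replicate 3 and WT replicate 1 were nearly level. Spry1 had a log2 fold change of -0.42 (SE 0.22, 95% interval -0.94 to 0.10; edgeR adjusted p = 0.362). It was -0.21 without the library labelled KO replicate 2, and the groups overlapped when counts were scaled by library totals only.

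Megf10 encodes a transmembrane protein with multiple EGF-like repeats that regulates the proliferation and differentiation of satellite cells. It had 499, 302 and 348 CPM in KO replicates 1, 2 and 3, against 363, 712 and 516 CPM in WT replicates 1, 2 and 3. The groups overlapped through KO replicate 1 and WT replicate 1. For Megf10 the log2 fold change was -0.47 (SE 0.30, 95% interval -1.16 to 0.22; edgeR adjusted p = 0.427). Without WT replicate 2 it was -0.20, without KO replicate 1 it was -0.70, and without the library labelled KO replicate 2 it was -0.32.

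Calcr encodes the calcitonin receptor, which is found on quiescent satellite cells, and Chrdl2 a chordin-like secreted inhibitor of bone morphogenetic proteins. Calcr had 2, 1 and 2 counts in KO replicates 1, 2 and 3 and 0 counts in each WT library. A count of 0 allows up to 3 counts, or 0.129 to 0.175 CPM in the WT libraries, so all 6 values lie at or under that floor and no fold is given. Chrdl2 had 0, 1 and 1 counts in KO replicates 1, 2 and 3 and 7, 10 and 1 counts in WT replicates 1, 2 and 3. Summed over libraries this was 2 counts in KO and 18 counts in WT, a ratio of 0.110 with an exact 95% interval of 0.0123 to 0.458. That interval covers counting error only, and WT replicate 3 held as many counts as KO replicates 2 and 3. The groups therefore overlapped, and neither gene was tested in edgeR.

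**Figure D2:**
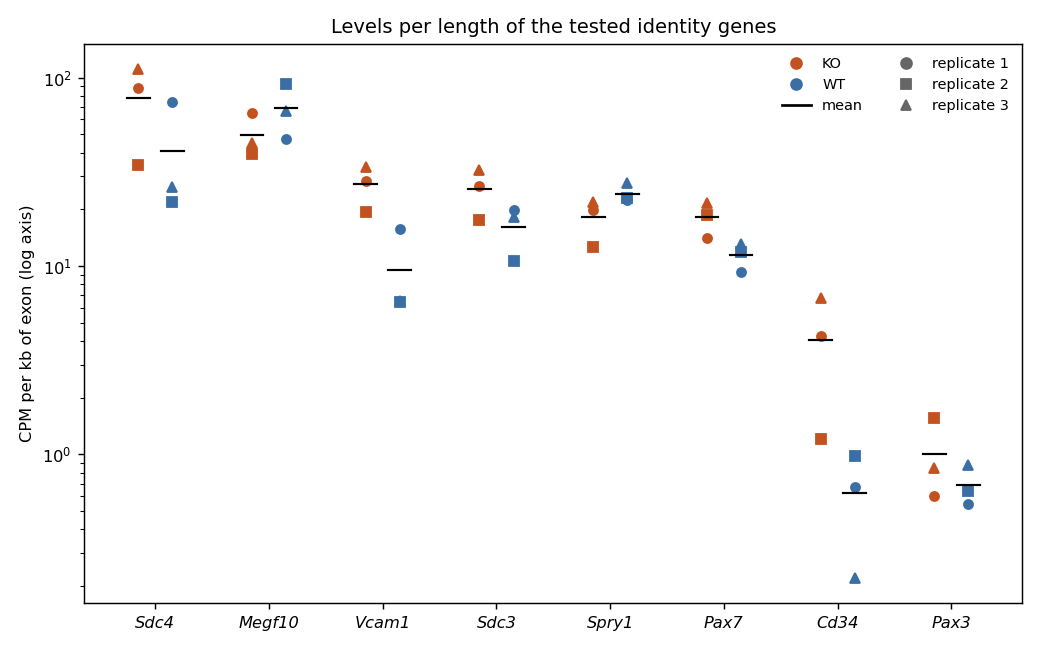
Level per kilobase of exon of the 8 tested identity genes on a log axis, KO left of WT for each gene, genes ordered by the KO mean. Points are libraries and lines are means; Cd34 is the seventh gene in KO, with a mean of 4.07, and lies at 0.624 in WT, next to Pax3.

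Levels of different genes were compared as CPM per kilobase of exon, with exon lengths from the GENCODE vM1 annotation, which is on an older build than the counts. In KO, Sdc4 was highest at 77.7 ± 39.0, followed by Megf10 at 49.6 ± 13.3, Vcam1 at 27.1 ± 7.14, Sdc3 at 25.5 ± 7.54, Spry1 at 18.2 ± 4.86 and Pax7 at 18.1 ± 3.86 CPM per kb (SD, n = 3). Cd34 was at 4.07 ± 2.77 and Pax3 at 1.00 ± 0.494 CPM per kb in KO. In WT the order was Megf10 at 68.7 ± 22.6, Sdc4 at 40.9 ± 29.2, Spry1 at 24.2 ± 2.78, Sdc3 at 16.2 ± 4.86, Pax7 at 11.4 ± 1.95 and Vcam1 at 9.55 ± 5.35 CPM per kb (SD, n = 3). Pax3 at 0.688 ± 0.174 and Cd34 at 0.624 ± 0.380 CPM per kb came next in WT. Among the tested members, neighbours in the KO order were separated by more than their SDs between Megf10 and Vcam1 and between Pax7 and Cd34. In WT this held between Spry1 and Sdc3 and between Vcam1 and Pax3. Calcr and Chrdl2 stayed at or below 0.181 CPM per kb on average in both groups.

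The members did not share 1 profile over the libraries. After centring the log2 CPM of each gene on its 6 libraries, KO replicate 3 was above the gene's mean for 7 of 8 tested members and was the highest library for 5. WT replicate 2 was above it for 2 and was the lowest library for 3. As a measure of likeness, the root-mean-square difference of these centred values over the 6 libraries was 0.35 log2 units for Spry1 and Megf10, 0.35 for Pax3 and Pax7, and 0.44 for Sdc4 and Vcam1, the 3 smallest of the 28 pairs. The largest difference was 1.54, between Cd34 and Megf10.

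**Figure D3:**
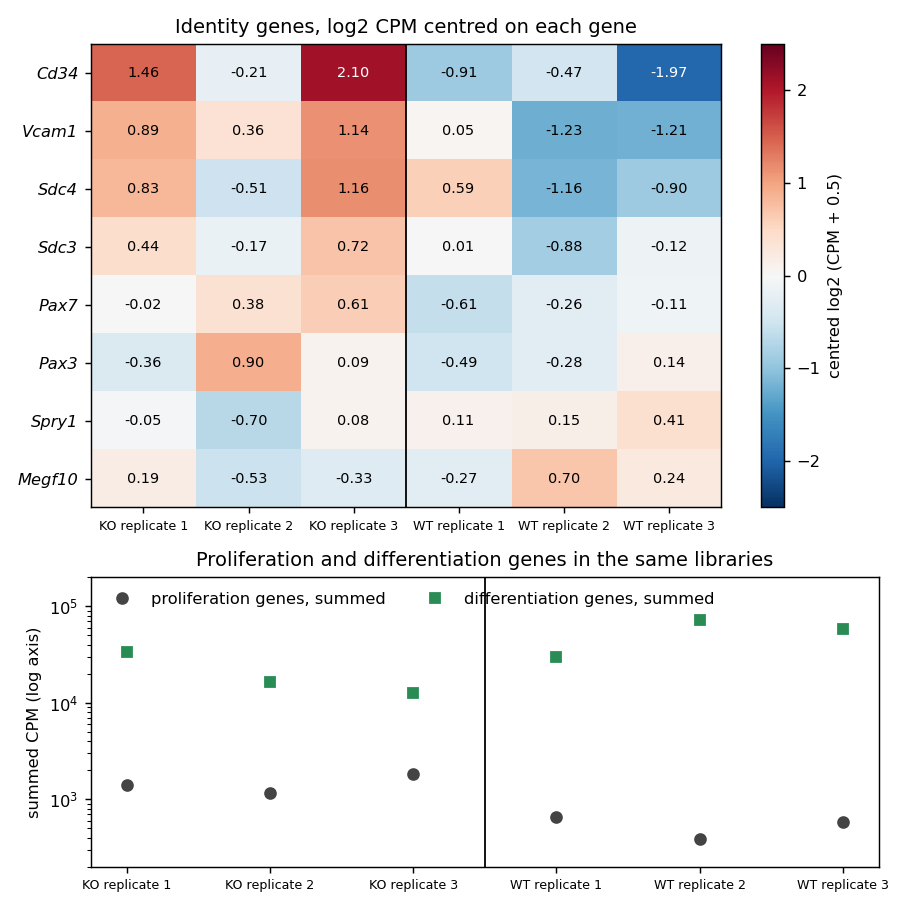
Upper panel: log2 (CPM + 0.5) of each tested identity gene minus its mean over the 6 libraries, KO libraries at the left and WT libraries at the right. Lower panel: summed CPM of proliferation and differentiation genes in the same libraries on a log axis; Vcam1 and the proliferation genes have the same order of libraries, with KO replicate 3 highest and WT replicate 2 lowest.

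Genes of proliferation and of differentiation also differed between these libraries, and their part in the values above was not tested. The summed level of 12 proliferation genes was 1409, 1165 and 1813 CPM in KO replicates 1, 2 and 3, against 661, 384 and 579 CPM in WT replicates 1, 2 and 3. From highest to lowest, the libraries had the same order in this sum as for Vcam1. The list had 12 of 12 positive log2 fold changes, a median of 1.48, and 12 genes higher and 0 lower by DESeq2. Over all its genes DESeq2 called 4.17% higher and 2.21% lower. Foxm1, which encodes a forkhead factor of mitotic entry, had a log2 fold change of 1.53, and Top2a, a topoisomerase of dividing cells, 1.41 (DESeq2 adjusted p = 8.18e-08 and 0.000455). The summed level of 18 measured differentiation genes was 33279, 16513 and 12545 CPM in KO replicates 1, 2 and 3, against 29874, 72747 and 57835 CPM in WT replicates 1, 2 and 3. The first 4 places of that order, WT replicate 2, WT replicate 3, KO replicate 1 and WT replicate 1, were also those of Megf10. Of these genes 18 of 18 were negative and 10 were called lower by DESeq2, where it called 2.21% of all its genes lower. Among the 10 were Ryr1, the calcium release channel, and Myh3, the embryonic myosin heavy chain, with log2 fold changes of -1.44 and -1.73. The Ryr1 call was lost without KO replicate 3 or WT replicate 2 (DESeq2 adjusted p = 0.0627 and 0.0557). That of Myh3 was lost without the library labelled KO replicate 2 (DESeq2 adjusted p = 0.124), without KO replicate 3 (0.239) and without WT replicate 2 or 3 (0.222 and 0.101), and its DESeq2 log2 fold change was -2.38 without KO replicate 1.

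Markers of other cells that a muscle preparation can hold were read for their levels, because Cd34 is also found on fibro-adipogenic and endothelial cells and Vcam1 on activated endothelium. Of 12 fibro-adipogenic and fibroblast markers 10 were in the table, and Pdgfra, Ly6a, Pi16, Clec3b, Mfap5, Col15a1 and Thy1 were under 1 CPM in each of the 6 libraries. Dcn had 0.249, 0 and 0.169 CPM in KO replicates 1, 2 and 3, against 1.25, 0.524 and 0.106 CPM in WT replicates 1, 2 and 3. The sum of this list was 628 to 770 CPM in KO and 333 to 543 CPM in WT. Nearly all of it was 1 gene, Col3a1, a fibrillar collagen, with a log2 fold change of 0.64 (edgeR adjusted p = 0.218). Of the 5 tested markers of the list, 3 had a positive and 2 a negative log2 fold change. Beside Col3a1 these were 0.90 for Pdgfra, 0.16 for Thy1, -1.55 for Ly6a and -0.88 for Col1a1. The Col1a1 means were 1.63 CPM in KO and 3.03 CPM in WT. Of 10 endothelial markers 7 were in the table, with sums of 6.44 to 9.83 CPM in KO and 8.44 to 12.6 CPM in WT. Cdh5, Kdr, Esam and Cldn5 were under 1 CPM in all libraries, and Vwf had the highest mean of the list, with a log2 fold change of -0.85. Pecam1 and Egfl7, the other tested markers of this list, had positive log2 fold changes of 1.12 and 0.85. Their means were 1.79 and 1.87 CPM in KO, against 0.806 and 1.03 CPM in WT. KO lay wholly below WT for Vwf and wholly above it for Egfl7, and the groups overlapped for Pecam1. The edgeR adjusted p was 0.256 for Vwf, 0.315 for Pecam1 and 0.358 for Egfl7. Haematopoietic markers summed to 6.67 to 8.59 CPM in KO and 5.68 to 16.3 CPM in WT, with 5 of 10 in the table, Csf1r and Lyz2 under 1 CPM, and Itgam and Cd14 the members with the highest mean and the smallest p. Sums of pericyte and smooth muscle markers were 982 to 2026 CPM in KO and 2138 to 3527 CPM in WT, most of it Acta2, an actin that myoblasts also express, with 7 of 8 in the table. Abcc9 of that list fell by DESeq2, with a log2 fold change of -2.35 (adjusted p = 0.00314), and the call was lost without the library labelled KO replicate 2 (adjusted p = 0.241), without KO replicate 3 (0.0884) and without WT replicate 2 or 3 (0.121 and 0.121). Its DESeq2 log2 fold change was -1.48 without WT replicate 2 and -3.08 without KO replicate 1. Schwann cell markers summed to 151 to 414 CPM in KO and 429 to 863 CPM in WT, most of it Erbb3, with 5 of 7 in the table. Mbp of that list had a log2 fold change of 1.35 and was called higher by DESeq2 (adjusted p = 0.0127), but not without the library labelled KO replicate 2 or without WT replicate 2 (adjusted p = 0.112 and 0.106).

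The other genes of the cell type, 25 genes listed by name, gave no common direction. Of these 12 had a positive and 13 a negative log2 fold change, with a median of -0.02, or 0.17 with scaling by library totals only, which shifts the median of all tested genes to 0.14. At an unadjusted edgeR p under 0.05, 4 were higher and 3 lower. That is 16% and 12% of the list, against 9.88% and 7.83% of all tested genes. After adjustment 0 passed in edgeR, where 0% of all genes passed. DESeq2 called 4 (16%) higher and 0 lower, against 4.17% and 2.21% of its genes, and limma-voom called 0. The groups did not overlap for 4 genes (16%) with KO above WT and 2 (8%) with KO below WT. Over all tested genes these shares were 13.2% and 10.2%, near those of the list.

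The 4 with the smallest p had KO above WT. Met, the hepatocyte growth factor receptor, had 146, 162 and 170 CPM in KO replicates 1, 2 and 3, against 104, 83.1 and 94.2 CPM in WT replicates 1, 2 and 3. Fgfr4, a fibroblast growth factor receptor of myoblasts, had 323, 412 and 267 CPM in KO replicates 1, 2 and 3, against 152, 192 and 130 CPM in WT replicates 1, 2 and 3. The KO libraries were above the WT libraries for both receptors, including the library labelled KO replicate 2. Hes1, a transcriptional repressor induced by Notch, had 38.1, 30.1 and 51.8 CPM in KO replicates 1, 2 and 3, against 17.4, 15.9 and 22.1 CPM in WT replicates 1, 2 and 3. Sox8, a transcription factor of satellite cells, had 74.7, 79.8 and 93.7 CPM in KO replicates 1, 2 and 3, against 56.2, 48.3 and 36.1 CPM in WT replicates 1, 2 and 3. Their log2 fold changes were 0.76, 1.08, 1.11 and 0.82 in the order Met, Fgfr4, Hes1 and Sox8, with DESeq2 adjusted p of 0.00413, 0.00246, 0.00481 and 0.0235. Without KO replicate 3, DESeq2 kept 1 of these calls, that of Fgfr4 (adjusted p = 0.00327); Met, Hes1 and Sox8 then had an adjusted p of 0.0706, 0.0846 and 0.235. Sox8 was also not called without the library labelled KO replicate 2, WT replicate 2 or WT replicate 3 (adjusted p = 0.0711, 0.0945 and 0.0714), and Hes1 not without WT replicate 2 (adjusted p = 0.0550). Itga7, Ncam1 and Dag1, which encode surface proteins of myoblasts and myotubes, had an unadjusted p under 0.05 with log2 fold changes of -0.50, -1.14 and -0.69. They are the 3 counted as lower and were named after their values were seen.

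**Figure D4:**
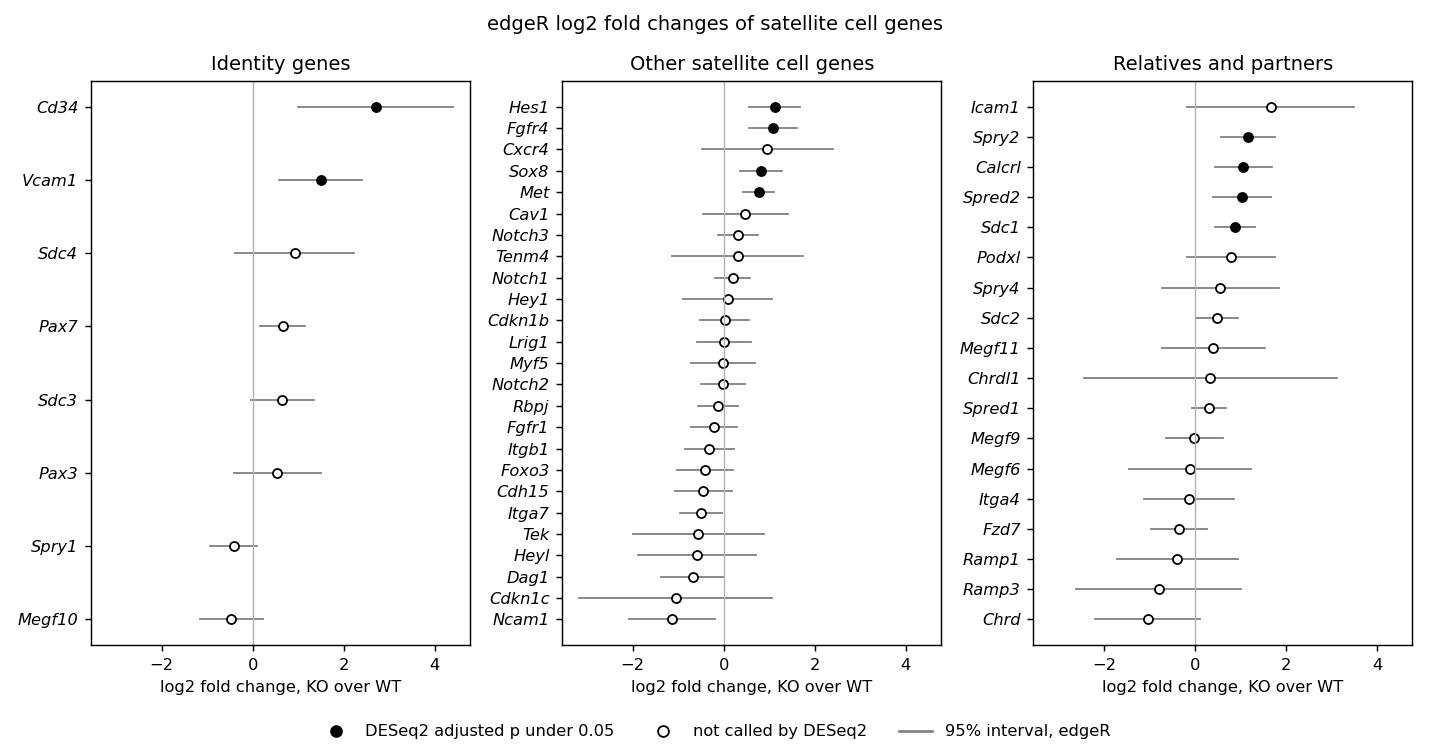
edgeR log2 fold changes of KO over WT with 95% intervals for the 8 tested identity genes, 25 other satellite cell genes and 18 tested relatives and partners. Filled points are genes with a DESeq2 adjusted p under 0.05, which are Cd34 and Vcam1 in the first panel, Hes1, Fgfr4, Sox8 and Met in the second, and Spry2, Calcrl, Spred2 and Sdc1 in the third.

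Of 21 relatives and partners of the members, listed by name, 18 were tested. Their median log2 fold change was 0.37, and 11 were positive and 7 negative. At an unadjusted edgeR p under 0.05, 5 (27.8%) were higher in KO and 0 lower, against 9.88% and 7.83% of all tested genes. After adjustment 0 passed in edgeR and in limma-voom, where 0% of all genes passed. DESeq2 called 4 (22.2%) higher and 0 lower, against 4.17% and 2.21% of its genes. KO lay wholly above WT for 5 relatives (27.8%) and wholly below for 0, against 13.2% and 10.2% of tested genes. Sdc1, a syndecan like Sdc3 and Sdc4, had 83.8, 57.1 and 87.7 CPM in KO replicates 1, 2 and 3, against 41.3, 41.4 and 40.6 CPM in WT replicates 1, 2 and 3. Its groups were apart, while those of Sdc3 and Sdc4 were not. Spry2, the paralogue of Spry1, had 66.5, 62.6 and 111 CPM in KO replicates 1, 2 and 3, against 40.0, 29.8 and 37.1 CPM in WT replicates 1, 2 and 3. The log2 fold change of Spry2 was 1.16 (SE 0.25) and that of Spry1 -0.42 (SE 0.22), with 95% intervals of 0.57 to 1.76 and -0.94 to 0.10. Whether these 2 genes differ in their response was not tested. Spred2, another inhibitor of receptor tyrosine kinase signalling, had 47.8, 48.1 and 89.0 CPM in KO replicates 1, 2 and 3, against 34.7, 28.7 and 27.0 CPM in WT replicates 1, 2 and 3. Calcrl, a receptor related to Calcr, had 11.4, 13.7 and 8.75 CPM in KO replicates 1, 2 and 3, against 6.37, 4.48 and 5.29 CPM in WT replicates 1, 2 and 3. The groups were apart for each of these 4 genes, and their DESeq2 adjusted p was 0.00782 for Sdc1, 0.00424 for Spry2, 0.0242 for Spred2 and 0.0138 for Calcrl. With 1 library left out, the Calcrl call was lost without KO replicate 1, the library labelled KO replicate 2, WT replicate 2 or WT replicate 3 (adjusted p = 0.0603, 0.106, 0.107 and 0.0618). That of Spred2 was lost without KO replicate 3, WT replicate 2 or WT replicate 3 (adjusted p = 0.159, 0.138 and 0.109). The Sdc1 call was lost without KO replicate 1 or KO replicate 3 (adjusted p = 0.0536 and 0.123), and that of Spry2 without WT replicate 2 (adjusted p = 0.0513).

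Genes with the profile most like that of a member were looked for among 10803 tested genes with a mean of at least 5 CPM, by the same root-mean-square difference over the 6 libraries. For Pax7 they were Psrc1, Apaf1 and Polk, at 0.066, 0.083 and 0.098 log2 units. For Cd34 they were Dock8, Stmn2 and Emp1, at 0.23, 0.34 and 0.34. For Vcam1 they were Lrp8, Kif18a and Upp1, at 0.17, 0.20 and 0.21. The likeness is a description over 6 libraries.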

How the data were processed

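RNA was sequenced from 3 KO and 3 WT myoblast cultures, grouped by their titles. Tools listed in the submitters' processing notes are TopHat2 2.0.8 with Bowtie2, Trimmomatic, FastQC, featureCounts and DESeq2, on build GRCm38; the sources used here do not give their settings. The deposited raw counts per gene were not normalized by the authors, per the file headers. The deposited normalized values are a signal in which the authors divided raw counts by 1 size factor per library; they were not used further. The authors' deposited log2 fold changes, test score, p-values and adjusted p-values are their own comparison.

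Raw counts were filtered with filterByExpr (14835 genes kept, 6943 dropped), TMM-scaled and fitted by genotype in edgeR 4.0.16 (quasi-likelihood F test), with Benjamini-Hochberg adjustment over all tested genes and a threshold of 0.05, in R 4.3.3. Standard errors were derived from the F statistic. DESeq2 1.42.0 and limma-voom (limma 3.58.1), other scalings and filters, a replicate block, a sex covariate and each library left out were alternatives; DESeq2 with a library left out was chosen after seeing the data. The 10 genes and the other lists were chosen with earlier results of these data known. All 10 members are named; of the satellite cell and relatives lists the 4 genes with the smallest p, of other lists the gene with the smallest p and that with the highest mean. Markers, Itga4, Itga7, Ncam1 and Dag1 named beside these lie outside that rule. Scripts were tested on simulated data. Replicates were not duplicates: no 2 libraries of a group held identical counts, and chi-square per degree of freedom was 61.6 to 134 between them.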

Additional observations from a re-analysis of the deposited data

How the results depend on the processing

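What causes the differences between settings was not tested. Pairing by replicate number was not borne out: deviations of same-numbered libraries correlated at -0.25 to 0.05, and 0 of 3 KO libraries correlated best with the WT library of their number. With the replicate block, 5 members were higher at an unadjusted p under 0.05, against 3 in the main edgeR test, and 1 other satellite cell gene was lower, against 3; with a sex covariate 5 members were higher. Scaling by library totals left 0 members with KO wholly below WT, against 1, and 1 other satellite cell gene lower by p and 1 by non-overlap, against 3 and 2. Over all genes DESeq2 called 2 members and 4 other satellite cell genes higher, against 0 and 0 in edgeR. With 1 library left out, the number of members higher was 0 to 3 by adjusted p in DESeq2, 2 to 5 by unadjusted p and 3 to 5 by non-overlap, and the number lower was 0 to 1 by unadjusted p and 1 to 2 by non-overlap. Of the other satellite cell genes, 1 to 5 were then higher and 0 to 2 lower by adjusted p in DESeq2, 0 to 5 lower by unadjusted p and 2 to 6 lower by non-overlap. Shares of all tested genes were not computed for the block, the sex covariate, the other scalings or the fits with a library left out. Whether these counts differ from such shares was therefore not tested. Without the library labelled KO replicate 2 the Hdac11 log2 fold change was -1.18 in DESeq2 (adjusted p = 3.67e-05); over all alternatives its adjusted p ran up to 0.823. Single members kept their side of the threshold in 148 comparisons with an alternative and passed it in 12, and other named genes in 328 and 72, with 0 changes of sign. At this depth, 10 counts or fewer of Calcr or Chrdl2 per library limit what can be said of both genes.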
